A study of Mus musculus with 18 samples.

Results

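The mast cell genes described here are 10 of the 55487 genes counted in each library. They were chosen by name as genes that mark mast cells or carry out their work. The rule for choosing them uses no measured value, but it was set with earlier results of these data known. They comprise 5 genes of granule proteases (*Cpa3*, *Cma1*, *Mcpt4*, *Tpsb2* and *Tpsab1*), 4 genes of surface receptors (*Kit*, *Fcer1a*, *Ms4a2* and *Mrgprb1*) and *Hdc*, which encodes the enzyme that makes histamine. RNA was sequenced from adipose tissue of male mice on a chow diet, with 1 mouse per library and 18 libraries in all. The subcutaneous white adipose tissue (sWAT) came from 4 control (Ctrl) and 4 Csn8AKO mice at 12 weeks of age, and the brown adipose tissue (BAT) from 5 Ctrl and 5 Csn8AKO mice at 4 weeks of age. Ctrl mice were Csn8 f/f littermates without Cre, which the labels call wildtype. Csn8AKO mice carried the same floxed alleles together with Cre under the adiponectin promoter, which is active in white and brown adipocytes, so that the deletion was directed to adipocytes. All 4 groups therefore carried the floxed *Csn8* alleles, and the groups of each tissue differed by the Cre transgene. Whole tissue was sequenced, and in such bulk samples a different number of mast cells and a different amount of RNA per mast cell cannot be told apart.

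Mast cells arise from hematopoietic progenitors and mature within tissues, where they depend on stem cell factor acting through the receptor KIT. They store proteases, histamine and proteoglycans in granules and release them when antigen crosslinks IgE bound to the high-affinity IgE receptor, or when ligands act on MRGPR receptors. Connective tissue mast cells of the mouse carry the chymases encoded by *Cma1* and *Mcpt4*, the tryptases encoded by *Tpsb2* and *Tpsab1*, and carboxypeptidase A3 encoded by *Cpa3*. Cells of this kind lie along the vessels and connective tissue of adipose tissue. *Kit* is also expressed by melanocytes, interstitial cells and blood progenitors, and *Hdc* by basophils and other myeloid cells, so that these genes are less restricted to mast cells than the proteases are.

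The promoters of 4 members are shown, 3 of them for proteases whose levels moved together across the libraries and 1 for a subunit of the IgE receptor that has the most matches to the motif searched. The sequences are RefSeq entries on GRCm38.p6, cover the 250 bases before the start of the gene in RefSeq on its own strand, and read 5′ to 3′. The gene of *Mcpt4* as counted here begins at 56062313, just inside the end of its window. Capitals mark the letters AGATAA or TGATAA, which are those bound by factors of the GATA family, including GATA2 of mast cells, or their reverse complements TTATCT and TTATCA.
Cpa3, chr3:20242182-20242431, minus strand: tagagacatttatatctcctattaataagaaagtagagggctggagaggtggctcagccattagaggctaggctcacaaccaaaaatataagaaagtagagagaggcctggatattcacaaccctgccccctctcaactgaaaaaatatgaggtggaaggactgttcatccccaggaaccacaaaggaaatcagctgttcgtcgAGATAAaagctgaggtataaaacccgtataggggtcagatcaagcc
Cma1, chr14:55944676-55944925, minus strand: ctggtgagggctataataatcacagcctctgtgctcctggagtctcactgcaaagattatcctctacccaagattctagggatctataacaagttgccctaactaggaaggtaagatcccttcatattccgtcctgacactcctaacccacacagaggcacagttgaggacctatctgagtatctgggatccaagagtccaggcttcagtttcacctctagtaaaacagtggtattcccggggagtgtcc
Mcpt4, chr14:56062311-56062560, minus strand: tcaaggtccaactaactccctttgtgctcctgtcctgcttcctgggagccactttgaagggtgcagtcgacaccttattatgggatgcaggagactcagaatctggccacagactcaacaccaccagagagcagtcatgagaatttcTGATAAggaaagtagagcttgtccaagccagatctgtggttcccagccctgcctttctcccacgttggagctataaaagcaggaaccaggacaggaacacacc
Ms4a2, chr19:11623720-11623969, minus strand: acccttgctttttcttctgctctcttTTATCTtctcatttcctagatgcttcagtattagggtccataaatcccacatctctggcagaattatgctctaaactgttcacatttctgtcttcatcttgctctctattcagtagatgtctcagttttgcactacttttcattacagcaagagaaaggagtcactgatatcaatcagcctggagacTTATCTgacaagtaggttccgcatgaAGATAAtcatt
The match in *Cpa3* begins 46 bases before the start and that in *Mcpt4* begins 103 bases before it. *Ms4a2* has 3 matches, which begin 224, 37 and 11 bases before the start, and *Cma1* has 0. Of the 8 members found in the RefSeq table, 4 hold at least 1 match, the other being *Fcer1a* with 1 match that begins 92 bases before its start. Among all 32851 promoters in the table, 5452 (16.6%) hold a match on either strand. A match is a description of these letters and not of binding. *Tpsb2* and *Tpsab1* were named only.

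The totals ran from 15835721 to 66719937 counted reads per library, and the sWAT libraries were shallower than those of BAT, with at most 23109603 reads against at least 26658593. Genes of ribosomal RNA held 0.863% to 47.8% of the reads, the most in Csn8AKO replicate 4 of sWAT. Some libraries stood apart by markers of other cells. In sWAT, the summed level of 8 T cell genes was 257 CPM (the reads of the genes scaled to the reads of the library) in Ctrl replicate 1 and 328 CPM in Csn8AKO replicate 2, but 7.21 to 32.1 CPM in the other sWAT libraries. In BAT, the summed level of 6 skeletal muscle genes was 107 and 191 CPM in Csn8AKO replicates 1 and 5, but 1.38 to 2.72 CPM in the other BAT libraries, and it varied from 41.6 to 2740 CPM among those of sWAT. *Csn8* is listed under its symbol *Cops8*, which was at 31.8 to 35.7 CPM in Ctrl and 26.9 to 34.8 CPM in Csn8AKO sWAT (log2 fold change -0.12, edgeR adjusted p = 0.623), and at 38.1 to 46.0 CPM in Ctrl and 28.3 to 37.3 CPM in Csn8AKO BAT (log2 fold change -0.30, adjusted p = 0.0211). These counts cover the whole gene, including the exons that the deletion leaves, and cells other than adipocytes keep the gene. The summed level of 7 adipocyte genes was 5121 to 21690 CPM in sWAT and 10775 to 13682 CPM in BAT, so that adipocyte genes were high in all 18 libraries.

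The first question was whether mast cell genes differ between genotypes in BAT, the tissue of the younger mice. All values per library are CPM after scaling by the trimmed mean of M values (TMM), and tests are edgeR's quasi-likelihood test within the tissue with p-values adjusted by Benjamini-Hochberg over all 22345 genes left by the filter on low counts. A gene was called at an adjusted p under 0.05. All 5 protease genes were higher in Csn8AKO BAT, by 5.55- to 8.27-fold, and every Csn8AKO library was above every Ctrl library for each of them. *Kit* and *Hdc*, the other members tested, were not called, and 3 of the 10 members did not pass the filter. Of the 5 proteases, *Tpsab1* passed the filter only by the level of its Csn8AKO libraries. In this tissue 31.9% of the genes tested were called (16.0% higher and 15.8% lower), so that calls were common here. The median log2 fold change of the 5 protease genes was 2.82, against 0.01 over all genes tested. Groups did not overlap with the Csn8AKO libraries higher for these 5 genes, against 9.50% of the genes tested.

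*Cpa3* (ENSMUSG00000001865, chromosome 3, 20215620 to 20242181), a metallo-carboxypeptidase that trims peptides in the granule, was at 0.593, 0.456, 0.517, 0.781 and 0.818 CPM in the 5 Ctrl libraries of BAT and at 5.02, 2.84, 3.67, 2.83 and 4.09 CPM in the 5 Csn8AKO libraries. All Ctrl libraries were under 1 CPM and all Csn8AKO libraries over 2 CPM. The log2 fold change was 2.57 with a standard error (SE) of 0.23 (edgeR adjusted p = 3.63e-06). *Cma1* (ENSMUSG00000022225, chromosome 14, 55941451 to 55944675), a chymase, was at 0.485, 0.280, 0.567, 0.724 and 0.558 CPM in Ctrl and 3.88, 2.64, 3.67, 2.10 and 6.05 CPM in Csn8AKO BAT. Here too the groups lay apart, and Csn8AKO replicate 5 was the highest library. Its log2 fold change was 2.82, SE 0.31 (adjusted p = 1.71e-05).

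*Mcpt4* (ENSMUSG00000061068, chromosome 14, 56059629 to 56062313), the main chymase of connective tissue mast cells, was at 0.997, 0.386, 0.601, 0.666 and 0.576 CPM in Ctrl and at 5.68, 3.25, 5.22, 4.37 and 7.36 CPM in Csn8AKO BAT. Of the members it had the largest fold change in BAT, with a log2 value of 3.05, SE 0.27 (edgeR adjusted p = 2.86e-06). *Tpsb2* (ENSMUSG00000033825, chromosome 17, 25366305 to 25369098), a tryptase, was at 1.21, 0.561, 1.07, 1.96 and 1.43 CPM in Ctrl and 9.43, 6.99, 8.89, 6.31 and 12.8 CPM in Csn8AKO BAT. The highest Ctrl library was below the lowest Csn8AKO library, and its log2 fold change was 2.85, SE 0.29 (adjusted p = 1.53e-05). *Tpsab1* (ENSMUSG00000024173, chromosome 17, 25343245 to 25345562), the neighboring tryptase, was at 0.323, 0.280, 0.050, 0.209 and 0.112 CPM in Ctrl and 0.678, 1.71, 1.31, 0.673 and 1.01 CPM in Csn8AKO BAT. These Ctrl values rest on 3 to 16 reads per library. The groups did not overlap here either, and the log2 fold change was 2.47, SE 0.43 (adjusted p = 6.10e-04). *Tpsab1* passed the filter only by the level of its Csn8AKO libraries, so that the filter favored this direction. In a fit without the filter, over 40085 genes of which 16.7% were called, its log2 fold change was 2.45 (edgeR adjusted p = 1.72e-05).

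**Figure D1:**
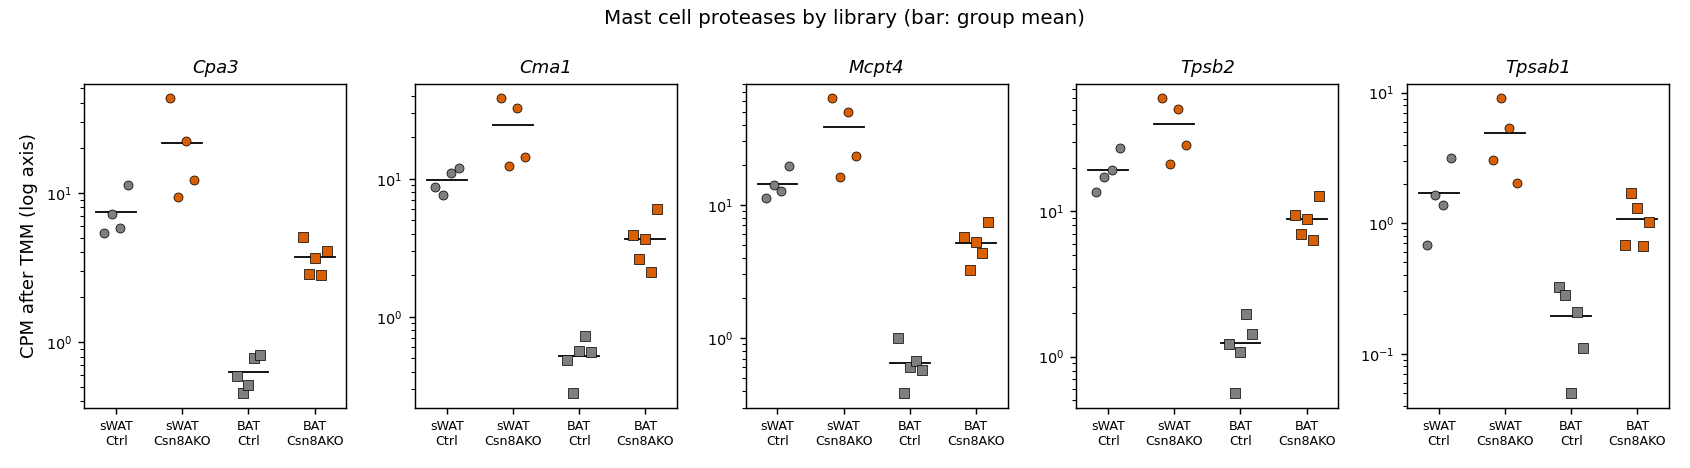
Level of each mast cell protease gene in the 18 libraries, as CPM after TMM scaling on a log axis, by tissue and genotype. Points are mice and bars are group means. In BAT every Csn8AKO point lies above every Ctrl point for all 5 genes, whereas in sWAT this holds for *Cma1* alone and the Csn8AKO points spread widely.

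The difference was also found without the 2 Csn8AKO libraries of BAT with muscle genes. The log2 fold changes were 2.30 for *Cpa3*, 2.42 for *Cma1*, 2.76 for *Mcpt4*, 2.58 for *Tpsb2* and 2.65 for *Tpsab1* in that fit, and all 5 were called, with adjusted p of at most 0.00215. This alternative was chosen after the data were seen. The other libraries did not decide these calls singly, since the 5 proteases were called in each of the 10 fits that left out 1 BAT library. Scaling by library size alone moved the median of all genes in BAT to 0.14, a shift that is small beside the protease changes.

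The receptor genes did not follow one pattern in BAT. *Kit* (ENSMUSG00000005672, chromosome 5, 75574916 to 75656722), the receptor of stem cell factor, was at 58.8, 47.5, 31.5, 24.8 and 16.3 CPM in Ctrl and 49.8, 14.4, 28.9, 27.1 and 24.4 CPM in Csn8AKO BAT. The groups overlapped over nearly their whole range, and the log2 fold change was -0.27, SE 0.41 (edgeR adjusted p = 0.662). *Fcer1a*, *Ms4a2* and *Mrgprb1* had too few reads in BAT to pass the filter. They are reported from a fit without the filter, over 40085 genes, of which 16.7% were called, 8.15% of all being called higher.

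*Fcer1a* (ENSMUSG00000005339, chromosome 1, 173221284 to 173227214), which encodes the chain of the IgE receptor that binds IgE, had 0, 1, 2, 0 and 0 reads in the Ctrl libraries of BAT and 4, 2, 0, 4 and 6 reads in the Csn8AKO libraries. Per read counted, the Csn8AKO level was 6.52 times the Ctrl level, with an exact 95% counting interval of 1.87 to 34.9. Intervals of this kind, and the floors at 3 reads, cover counting error only and not the spread between mice, and they treat each counted read as independent. Most low counts were even (64.4% to 72.1% of gene counts from 3 to 20), and if both mates of a pair were counted, which was not tested, the intervals are too narrow and the floors too low. In the fit without the filter the log2 fold change was 2.61 (edgeR adjusted p = 0.148). *Ms4a2* (ENSMUSG00000024680, chromosome 19, 11615523 to 11623719), which encodes the signal-amplifying chain of the same receptor, had 0, 2, 0, 6 and 0 reads in Ctrl and 6, 6, 2, 6 and 8 reads in Csn8AKO BAT. All 10 of these counts are even, so that the same limit applies. The ratio was 4.28, with a 95% counting interval of 1.90 to 10.9 if reads are independent, and the log2 fold change was 2.19 (adjusted p = 0.113). A library at 0 reads still allows, at 3 reads, a level of up to 0.050 to 0.106 CPM in BAT. Differences of these 2 genes in BAT were not detectable by the test across mice at this depth.

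*Mrgprb1* (ENSMUSG00000070547, chromosome 7, 48444113 to 48456342), a member of the MRGPR family of mast cell receptors, was at 0.162, 0.140, 0.100, 0.152 and 0.186 CPM in Ctrl and 0.390, 0.163, 0.459, 0.561 and 0.946 CPM in Csn8AKO BAT. Of the Csn8AKO libraries, only replicate 2 fell within the Ctrl range. Its log2 fold change was 1.77 (edgeR adjusted p = 0.0042 without the filter). *Hdc* (ENSMUSG00000027360, chromosome 2, 126593667 to 126619299), histidine decarboxylase, was at 7.84, 10.3, 6.47, 12.5 and 14.9 CPM in Ctrl and 7.89, 9.14, 13.2, 9.15 and 13.3 CPM in Csn8AKO BAT. The groups overlapped, and the estimate was 0.03 on the log2 scale, SE 0.23 (adjusted p = 0.928). In BAT the 5 proteases thus rose, while neither *Kit* nor *Hdc* was called.

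**Figure D2:**
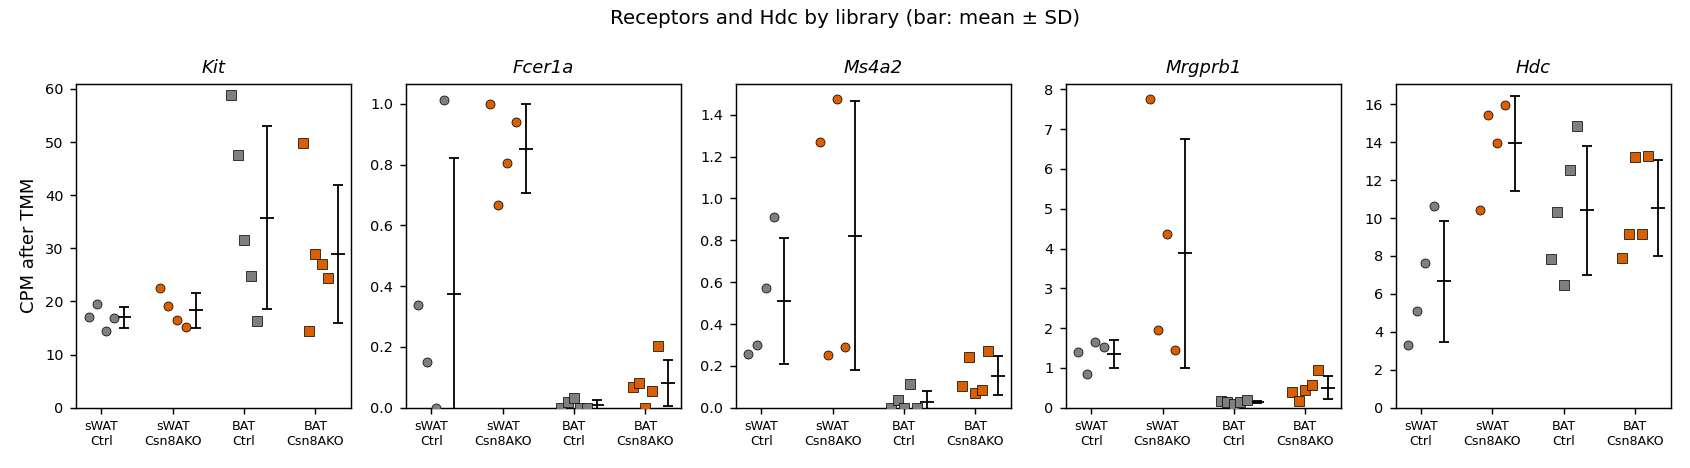
Level of the receptor genes and *Hdc* in the 18 libraries, as CPM after TMM scaling on linear axes from 0. Points are mice and bars are means ± SD. *Kit* and *Hdc* overlap between genotypes in BAT, and *Fcer1a*, *Ms4a2* and *Mrgprb1* lie under 1 CPM in all 10 BAT libraries.

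The same comparison in the sWAT of 12-week-old mice gave a similar direction without a call. All 10 members had a higher fitted level in Csn8AKO sWAT. Their median change was 1.23 on the log2 scale against 0.03 over the 18843 genes tested, and 0 of the 10 were called by edgeR, with adjusted p of 0.0657 to 0.743. In this tissue 5.31% of genes were called (2.30% higher and 3.00% lower). At an unadjusted p under 0.05 there were 7 members, namely *Cpa3*, *Cma1*, *Mcpt4*, *Tpsb2*, *Tpsab1*, *Mrgprb1* and *Hdc*, against 20.4% of all genes (9.88% higher). DESeq2 called these 7 members, with 10.3% of all genes called (4.84% higher). Limma voom called *Cpa3*, *Cma1*, *Mcpt4* and *Tpsb2*, with 11.3% of all genes called (5.65% higher). EdgeR with all 4 groups in one fit called *Cpa3*, *Cma1*, *Mcpt4*, *Mrgprb1* and *Hdc*, with 10.9% of all genes called (4.64% higher).

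*Cpa3* was at 5.39, 7.20, 5.84 and 11.3 CPM in the 4 Ctrl libraries of sWAT and at 42.9, 9.44, 22.2 and 12.1 CPM in the 4 Csn8AKO libraries (log2 fold change 1.54, SE 0.46, edgeR adjusted p = 0.0980). *Cma1* was at 8.78, 7.60, 11.0 and 11.9 CPM in Ctrl and 38.2, 12.4, 32.6 and 14.5 CPM in Csn8AKO sWAT (1.31, SE 0.35, adjusted p = 0.0657). It was the 1 member whose groups did not overlap, against 13.6% of all genes (5.64% higher). *Mcpt4* was at 11.3, 14.0, 12.6 and 19.6 CPM in Ctrl and 62.9, 16.2, 49.8 and 23.2 CPM in Csn8AKO sWAT (1.41, SE 0.40, adjusted p = 0.0845). *Tpsb2* was at 13.7, 17.3, 19.2 and 27.2 CPM in Ctrl and 59.9, 21.2, 50.2 and 28.5 CPM in Csn8AKO sWAT (1.05, SE 0.32, adjusted p = 0.101). For these 4 proteases Csn8AKO replicates 1 and 3 were well above all Ctrl libraries, and replicates 2 and 4 were near the highest Ctrl library. Replicate 2 is the library rich in T cell genes and replicate 4 that with most ribosomal RNA, and the part of either in these values was not tested beyond leaving them out.

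*Tpsab1* had another order, with 0.679, 1.65, 1.37 and 3.14 CPM in Ctrl and 3.04, 9.02, 5.36 and 2.02 CPM in Csn8AKO sWAT, so that replicate 2 was its highest library (log2 fold change 1.55, SE 0.55, edgeR adjusted p = 0.146). Without the 2 sWAT libraries rich in T cell genes its log2 fold change was 0.76 (adjusted p = 0.322), whereas *Cma1*, *Mcpt4* and *Tpsb2* were then called, at 1.49, 1.57 and 1.13 (adjusted p = 0.0435, 0.0422 and 0.0426). In that fit 1820 of 18547 genes were called (993 higher), against 1000 of 18843 with all libraries. The same 3 genes were called without Csn8AKO replicate 2 alone, with adjusted p of 0.0222, 0.0231 and 0.0326, where 1477 of 19197 genes were called (804 higher). *Cma1* was called without Csn8AKO replicate 4 (adjusted p = 0.0425), where 999 of 19749 genes were called (391 higher). Without the 4 sWAT libraries richest in ribosomal RNA, which leaves 2 mice per group, 0 of all genes tested were called and the log2 fold changes of the 5 proteases were 1.03 to 1.70. The sWAT difference of the 5 proteases had the same direction in each of these fits.

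Among the receptors in sWAT, *Kit* was at 17.1, 19.5, 14.5 and 16.9 CPM in Ctrl and 22.5, 19.1, 16.5 and 15.1 CPM in Csn8AKO mice, with overlapping groups (log2 fold change 0.12, SE 0.16, edgeR adjusted p = 0.743). *Mrgprb1* was at 1.40, 0.850, 1.66 and 1.52 CPM in Ctrl and 7.76, 1.96, 4.35 and 1.45 CPM in Csn8AKO sWAT (1.51, SE 0.50, adjusted p = 0.115), with replicates 1 and 3 again the highest. *Fcer1a* was at 0.339, 0.150, 0 and 1.01 CPM in Ctrl and 0.998, 0.668, 0.804 and 0.940 CPM in Csn8AKO sWAT (1.16, SE 0.73, adjusted p = 0.427). The library at 0 allows up to 0.172 CPM at 3 reads. *Ms4a2* was at 0.255, 0.300, 0.572 and 0.911 CPM in Ctrl and 1.27, 0.251, 1.47 and 0.289 CPM in Csn8AKO sWAT (0.69, SE 0.65, adjusted p = 0.615). *Fcer1a* and *Ms4a2* therefore lay near the limit of detection, at no more than 28 reads per library. *Hdc* was at 3.31, 5.10, 7.61 and 10.6 CPM in Ctrl and 10.4, 15.4, 13.9 and 16.0 CPM in Csn8AKO sWAT, where only the highest Ctrl library passed the lowest Csn8AKO library (1.08, SE 0.32, adjusted p = 0.0866).

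**Figure D3:**
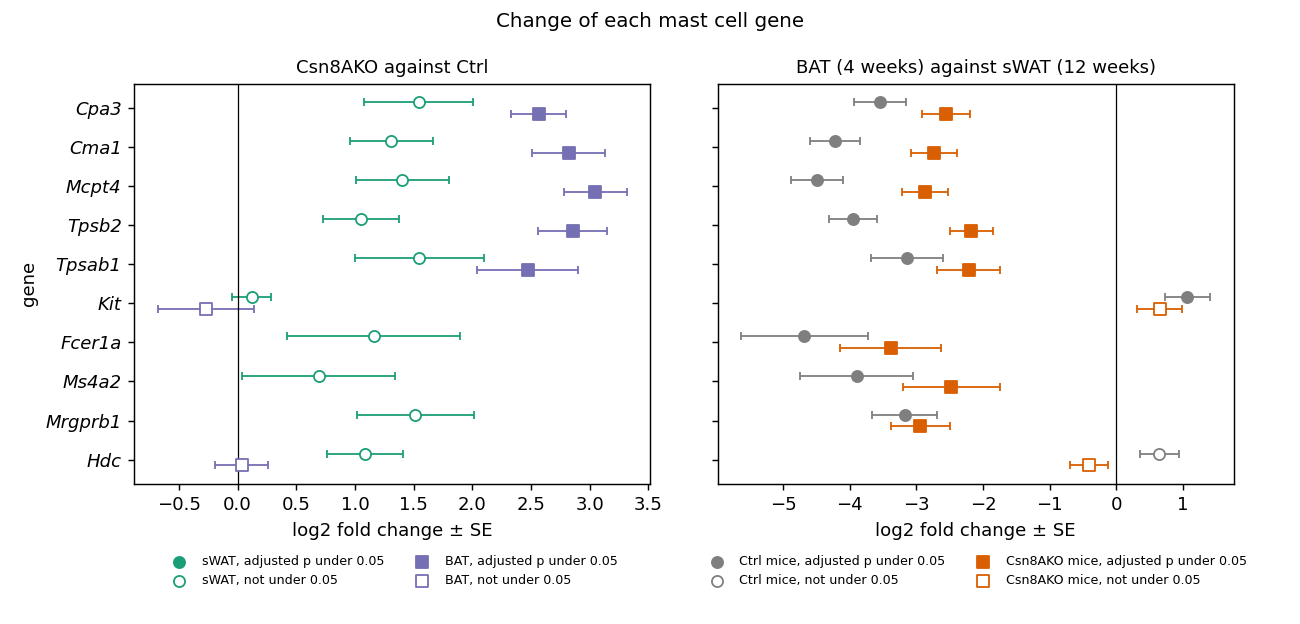
Log2 fold change ± SE of each member from edgeR, for Csn8AKO against Ctrl within each tissue (left) and for BAT against sWAT within each genotype (right). Filled symbols have an adjusted p under 0.05. The proteases have values of 2.47 to 3.05 in BAT, all filled, and of 1.05 to 1.55 in sWAT, all open, *Kit* and *Hdc* lie near 0 in BAT, and 3 receptor genes have no BAT value because they did not pass the filter.

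Whether the genotype difference itself differed between the tissues was tested as an interaction over all 18 libraries. Of the 10 members 0 were called by edgeR, against 2.36% of the 22509 genes tested, and 4 had an unadjusted p under 0.05 (*Cma1*, *Mcpt4*, *Tpsb2* and *Hdc*), against 15.3% of genes. DESeq2 called *Cma1*, *Mcpt4* and *Tpsb2*, with 4.85% of genes called (3.27% higher), and limma voom called *Tpsb2*, with 4.06% called (2.58% higher). *Tpsb2* had the smallest adjusted p, with a BAT change larger than the sWAT change by 1.78, SE 0.47, on the log2 scale (adjusted p = 0.0552). This value was 0.0430 without Ctrl replicate 1 of sWAT, 0.0347 without Csn8AKO replicate 1 of sWAT and 0.0339 without Ctrl replicate 4 of BAT, so that its call turned on single libraries. *Mcpt4* differed by 1.62 (adjusted p = 0.102, or 0.0386 without Csn8AKO replicate 1 of sWAT), *Cma1* by 1.48 (adjusted p = 0.137) and *Cpa3* by 1.00 (adjusted p = 0.369). *Hdc* differed in the other direction, by -1.05 (adjusted p = 0.206). By the main edgeR fit a larger response in BAT than in sWAT is not shown for any member at this threshold. The calls by DESeq2 and limma voom differ from it, and the tissues also differ in age.

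Next, the level of each gene was compared between the tissues. BAT came from 4-week-old and sWAT from 12-week-old mice, so that tissue and age cannot be told apart, and these comparisons share their libraries with those of genotype. In Ctrl mice 9 of the 10 members were called, 8 lower and 1 higher in BAT, against 51.5% of all genes (25.7% lower and 25.9% higher). *Mcpt4* was 22.5-fold lower in BAT (log2 fold change -4.49, SE 0.38, edgeR adjusted p = 2.05e-08), *Cma1* 18.7-fold, *Tpsb2* 15.5-fold, *Cpa3* 11.7-fold, *Mrgprb1* 9.03-fold and *Tpsab1* 8.84-fold. For 7 members every Ctrl library of BAT was below every Ctrl library of sWAT, against 22.1% of genes with that direction. *Fcer1a* and *Ms4a2* had 3 and 8 reads in all 5 Ctrl libraries of BAT together, and their sWAT levels were 33.3 times (95% counting interval 10.4 to 170) and 16.1 times (7.44 to 39.9) as high, with intervals that again treat reads as independent. *Kit* was the member that was higher in BAT, by 2.10-fold (log2 fold change 1.07, SE 0.34, adjusted p = 0.0144). That call was lost without the 2 sWAT libraries rich in T cell genes (adjusted p = 0.0550), without the 4 rich in ribosomal RNA (0.0884) and with scaling by library size alone (0.138), also with ribosomal RNA genes left out (0.106). *Hdc* was not called, at 0.65 on the log2 scale (adjusted p = 0.0724), but was without Ctrl replicate 4 of sWAT (0.0104) or Ctrl replicate 3 of BAT (0.0341).

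In Csn8AKO mice the proteases were lower in BAT as well. Here 8 members were called, all lower in BAT, against 51.6% of all genes (26.7% lower). The fold was 7.34 for *Mcpt4*, 6.68 for *Cma1*, 5.86 for *Cpa3*, 4.65 for *Tpsab1* and 4.51 for *Tpsb2*. *Kit* was at 0.66 (adjusted p = 0.115) and *Hdc* at -0.41 (adjusted p = 0.249) on the log2 scale. Without Csn8AKO replicate 2 of BAT *Kit* was called (0.83, adjusted p = 0.0409), and without the 4 sWAT libraries rich in ribosomal RNA the call of *Ms4a2* was lost (-2.30, adjusted p = 0.0523). The groups did not overlap for 7 members, against 19.4% of genes in that direction.

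Across the 4 groups, each of the 5 proteases had its lowest mean in BAT Ctrl, then BAT Csn8AKO, sWAT Ctrl and sWAT Csn8AKO. For *Cpa3*, *Cma1*, *Mcpt4* and *Tpsb2* the highest Csn8AKO library of BAT was still below the lowest Ctrl library of sWAT, at 5.02 against 5.39, 6.05 against 7.60, 7.36 against 11.3 and 12.8 against 13.7 CPM. For *Tpsab1* these 2 groups overlapped. The step from sWAT Ctrl to sWAT Csn8AKO did not pass edgeR's test within the tissue for any of them. DESeq2 called it for all 5, and limma voom for all but *Tpsab1*. The step between BAT Csn8AKO and sWAT Ctrl was not tested. The order was another for *Kit*, whose means ran from sWAT Ctrl (17.0 ± 2.06 CPM, SD, n = 4) through sWAT Csn8AKO (18.3 ± 3.23) and BAT Csn8AKO (28.9 ± 13.0, n = 5) to BAT Ctrl (35.8 ± 17.2). For *Hdc* it ran from sWAT Ctrl (6.66 ± 3.18) over BAT Ctrl (10.4 ± 3.4) and BAT Csn8AKO (10.5 ± 2.53) to sWAT Csn8AKO (13.9 ± 2.49).

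Levels of different genes were compared as CPM per kilobase of exon. In sWAT Ctrl, *Mcpt4* (13.0 ± 3.29, SD, n = 4), *Tpsb2* (12.1 ± 3.58) and *Cma1* (9.02 ± 1.82) were the highest members and overlapped in their spread, followed by *Cpa3* (4.91 ± 1.79), *Kit* (1.91 ± 0.231), *Hdc* (1.04 ± 0.498) and *Tpsab1* (0.817 ± 0.495). *Fcer1a*, *Mrgprb1* and *Ms4a2* were at 0.181 to 0.376. In sWAT Csn8AKO the first 4 places were the same, with *Mcpt4* at 34.3 ± 19.9. In BAT Ctrl the order was turned, with *Kit* (4.01 ± 1.93, n = 5) and *Hdc* (1.63 ± 0.532) above *Tpsb2* (0.782 ± 0.321), *Mcpt4* (0.582 ± 0.201), *Cma1* (0.480 ± 0.148) and *Cpa3* (0.417 ± 0.106). In BAT Csn8AKO, *Tpsb2* (5.57 ± 1.59), *Mcpt4* (4.67 ± 1.38) and *Cma1* (3.37 ± 1.39) led, and *Kit* (3.24 ± 1.45) came after them. These ranks compare gene levels and not proteins.

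Within groups, 4 of the proteases varied together from mouse to mouse. With group means removed, Pearson's r over the 18 libraries was 0.80 to 0.92 for the 6 pairs of *Cpa3*, *Cma1*, *Mcpt4* and *Tpsb2*. It was 0.59 to 0.73 between *Mrgprb1* and these 4, and 0.55 to 0.67 for *Ms4a2*. *Fcer1a* was at 0.16 to 0.28, *Kit* at -0.14 to 0.28 and *Hdc* at 0.0027 to 0.30. *Tpsab1* stood out from the other proteases, with r of -0.09 to 0.00096. These correlations are descriptions over libraries that share depth and the scaling, and those of *Fcer1a*, *Ms4a2*, *Mrgprb1* and *Tpsab1* rest on few reads.

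No sign of reads shared with other genes was found for the members. None of their exon bases overlapped an exon of another gene. No stretch of 150 bases, the length of a read, of the longest transcript of each was found unchanged in another gene. Exon bases outside that transcript were not searched.

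The other genes of mast cell biology were taken as 6 lists of 61 genes in all, of which 45 passed the filter in BAT. Of these, 25 were higher and 4 lower in Csn8AKO BAT, with a median log2 fold change of 0.72. Among all genes tested in BAT the share called was 31.9% (16.0% higher and 15.8% lower), and in sWAT it was 5.31% (2.30% higher and 3.00% lower). Many of these genes are also used by macrophages and other leukocytes, whose markers are given after the lists.

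Of the list of granule contents and mediator synthesis, 6 of 9 genes were higher in BAT, against 16.0% of all genes tested. *Ltc4s*, the synthase of leukotriene C4, rose by 2.04 on the log2 scale (edgeR adjusted p = 8.13e-07), *Alox5ap*, which presents substrate to 5-lipoxygenase, by 1.82 (5.16e-05), *Hpgds*, the prostaglandin D2 synthase of hematopoietic cells, by 1.16 (1.51e-04) and *Tph1*, which makes serotonin in mast cells, by 2.74 (6.57e-04). *Tph1* went from 0.0786 ± 0.0368 CPM (SD, n = 5) to 0.559 ± 0.256 CPM. With Ctrl levels this low it was tested only through its Csn8AKO libraries, and a fall could not have been called. *Slc18a2*, the vesicle transporter that loads monoamines into granules, rose by 0.40 (adjusted p = 0.0307). *Srgn*, the core protein of the granule proteoglycan serglycin, was not called, at 0.20 on the log2 scale (adjusted p = 0.144). In sWAT 1 of the 9 genes was called, *Hpgds* at 1.44 (adjusted p = 0.0194), where 2.30% of all genes tested were called higher. *Slc18a2* was at 0.75 (adjusted p = 0.0800) and *Srgn* at 0.55 (adjusted p = 0.288) there.

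The list of other proteases and receptors held 12 genes, most of them at few reads. In BAT 2 of them were tested, and *Il1rl1*, the receptor of interleukin 33, was called, with 0.951 to 1.64 CPM in Ctrl and 2.28 to 4.02 CPM in Csn8AKO mice (log2 fold change 1.43, edgeR adjusted p = 1.07e-04). In sWAT 6 were tested and 0 called, and *Il1rl1* was at 0.92 (adjusted p = 0.0695). Among all genes tested, 16.0% were called higher in BAT and 2.30% in sWAT. *Mrgprb2*, the receptor by which peptides and drugs activate mouse mast cells, was at 0.343 to 0.700 CPM in Ctrl and 0.418 to 2.72 CPM in Csn8AKO sWAT (1.38, adjusted p = 0.183), and at 0 to 0.407 CPM in BAT, where it did not pass the filter.

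Of 15 genes of IgE receptor and KIT signaling, 12 were higher and 0 lower in BAT, against 16.0% and 15.8% of all genes tested. *Syk*, the kinase recruited by the receptor, rose by 2.06 (edgeR adjusted p = 3.57e-06), *Lcp2*, an adaptor of that pathway, by 1.67 (8.35e-06), *Inpp5d*, an inositol phosphatase that restrains it, by 0.97 (1.73e-05), and *Fcer1g*, the signaling chain that the IgE receptor shares with other Fc receptors, by 1.49 (4.63e-05). In sWAT 3 of the 15 were called, all higher, against 2.30% of all genes tested. They were *Fcer1g* at 0.99 (0.00756), *Lat2*, an adaptor of leukocytes, at 1.49 (0.0263) and *Syk* at 0.97 (0.0347). *Syk* was at 65.9 to 103 CPM in Ctrl and 143 to 244 CPM in Csn8AKO sWAT, and at 5.44 to 7.25 and 17.6 to 39.1 CPM in BAT.

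Among 8 transcription factors, 3 were higher and 2 lower of the 7 tested in BAT, against 16.0% and 15.8% of all genes tested. *Spi1*, which directs the myeloid lineage, rose by 1.51 (edgeR adjusted p = 1.48e-04) and *Mitf*, which mast cells share with melanocytes and other cells, by 0.72 (0.00312). *Stat5a* and *Stat5b*, which act in adipocytes as well as behind KIT, fell by 1.14 (4.58e-05) and 0.58 (6.49e-05). *Gata2*, a factor of mast cells and progenitors, was at 0.29 (0.0868). In sWAT *Spi1* (1.10, 0.0192) and *Mitf* (0.71, 0.0390) were higher and *Stat5a* (-0.84, 0.0186) was lower, and *Gata2* was at 0.13 (0.744).

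Of the growth factors and cytokines, 3 of 7 genes tested were higher in BAT and 1 of 6 in sWAT, against 16.0% and 2.30% of all genes tested. *Kitl*, the stem cell factor that acts on KIT, was at 52.6 to 80.8 CPM in Ctrl and 61.7 to 89.2 CPM in Csn8AKO BAT (log2 fold change 0.13, edgeR adjusted p = 0.487) and did not pass the test in sWAT either (0.25, adjusted p = 0.454). *Il33*, a cytokine that activates mast cells through *Il1rl1*, was called in both tissues. It went from 0.50 to 0.755 CPM in Ctrl to 1.02 to 1.78 CPM in Csn8AKO BAT (1.14, adjusted p = 0.00190), and from 5.20 to 10.5 CPM to 12.4 to 27.6 CPM in sWAT (1.60, adjusted p = 0.0160). Its groups did not overlap in either tissue. *Tgfb1*, which acts on mast cells among many others, rose by 0.73 in BAT (8.26e-04).

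Of the genes for histamine receptors and breakdown, 2 of 5 tested were lower in BAT and 0 were higher, against 15.8% and 16.0% of all genes tested. *Hnmt*, which methylates and so inactivates histamine, fell by 1.84 on the log2 scale, from 9.30 to 14.7 CPM in Ctrl to 2.73 to 4.26 CPM in Csn8AKO BAT (edgeR adjusted p = 4.15e-06). *Slc22a3*, a transporter that takes up histamine and other amines, fell by 1.00 (2.86e-06). In sWAT 0 of 4 were called by edgeR, and *Hnmt* was at -0.52 (adjusted p = 0.401).

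**Figure D4:**
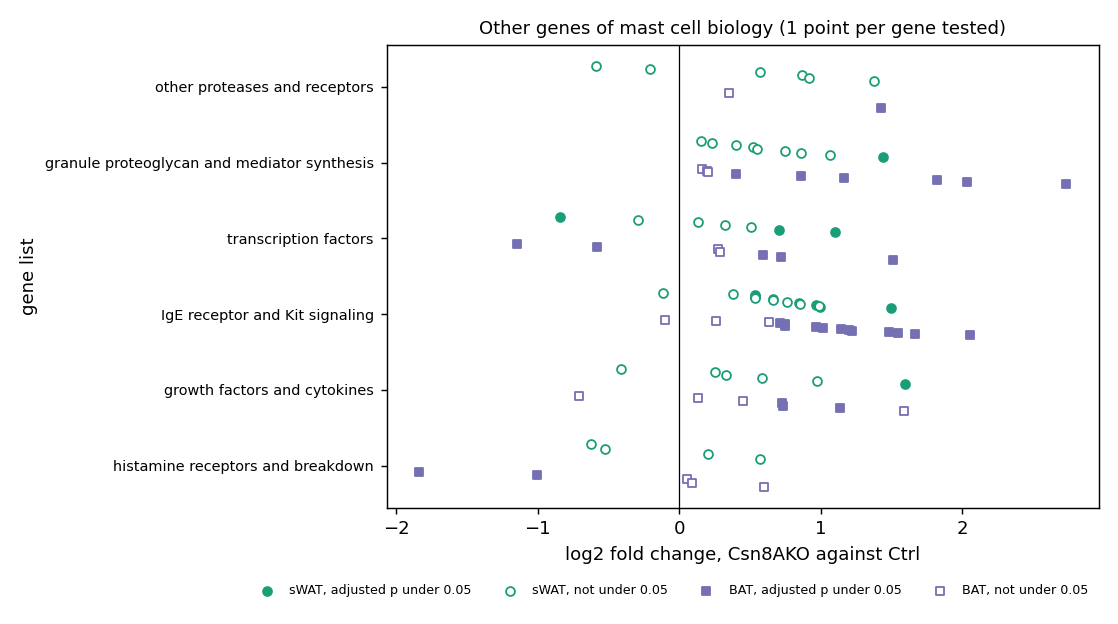
Log2 fold change, Csn8AKO against Ctrl, of each tested gene of the 6 lists of other mast cell genes, in sWAT (circles) and BAT (squares). Filled symbols have an adjusted p under 0.05. In BAT 25 genes are filled to the right of 0 and 4 to the left, and in sWAT 7 and 1.

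In sWAT, 8 of the 47 genes tested in these lists were called, 7 higher and 1 lower, and their median was 0.55 on the log2 scale. Among all genes the share called was 5.31% (2.30% higher and 3.00% lower). The count of 8 was 0 with scaling by library size alone and 2 to 11 when 1 library was left out, and 18 without the 2 libraries rich in T cell genes. It fell to 3 without Ctrl replicate 2, and to 2 without Ctrl replicate 3 or 4 or Csn8AKO replicate 1 or 3.

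Macrophage genes were called higher in both tissues. Of all genes tested, 16.0% were called higher in BAT and 2.30% in sWAT. In BAT 9 of 10 macrophage genes were higher in Csn8AKO mice, with a median log2 fold change of 1.56, and their summed level was 107 to 146 CPM in Ctrl and 323 to 412 CPM in Csn8AKO mice. *Cd68*, a lysosomal glycoprotein of macrophages, rose by 2.52 and *Lgals3*, a galectin, by 4.43. All 7 fibroblast genes were higher, with a median of 1.33. In sWAT 6 of 10 macrophage genes were higher, with summed levels of 925 to 1361 CPM in Ctrl and 1320 to 2561 CPM in Csn8AKO mice. *Ear2* of the eosinophil list rose in both tissues, by 2.99 in BAT and 1.57 in sWAT. It was the 1 gene of that list tested in BAT. In sWAT 2 of the 6 genes were tested, both with a higher fitted level, and 1 was called. The granule genes *Epx* and *Prg2* were at 0 to 0.250 CPM in every library. *Cd200r3*, which basophils share with mast cells, was higher in BAT by 1.95 (edgeR adjusted p = 0.00266), from 0.0334 to 0.114 CPM to 0.212 to 0.390 CPM. This gene is near the floor and passed the filter through its Csn8AKO libraries alone, so that a lower level there could not have been called. The basophil protease gene *Mcpt8* had no read in 17 of the 18 libraries, and *Prss34* was at 0 to 0.726 CPM. The part of macrophages, fibroblasts and eosinophils in the levels of the members was not tested.

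The melanocyte genes, which were included because melanocytes use *Kit* and *Mitf*, had 2 of 3 tested genes higher in BAT, against 16.0% of all genes. Their summed levels in BAT were 3.26 to 5.45 CPM in Ctrl and 6.91 to 13.1 CPM in Csn8AKO mice, while *Kit* itself was not called. Adipocyte genes had 2 of 7 lower in BAT and 3 of 7 lower in sWAT, against 15.8% and 3.00% of all genes. Their summed level in sWAT was 16357 to 21690 CPM in Ctrl and 5121 to 12775 CPM in Csn8AKO mice. A CPM is a share of the RNA of the tissue, and the part of a smaller adipocyte share in the higher level of other genes was not tested.

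**Figure D5:**
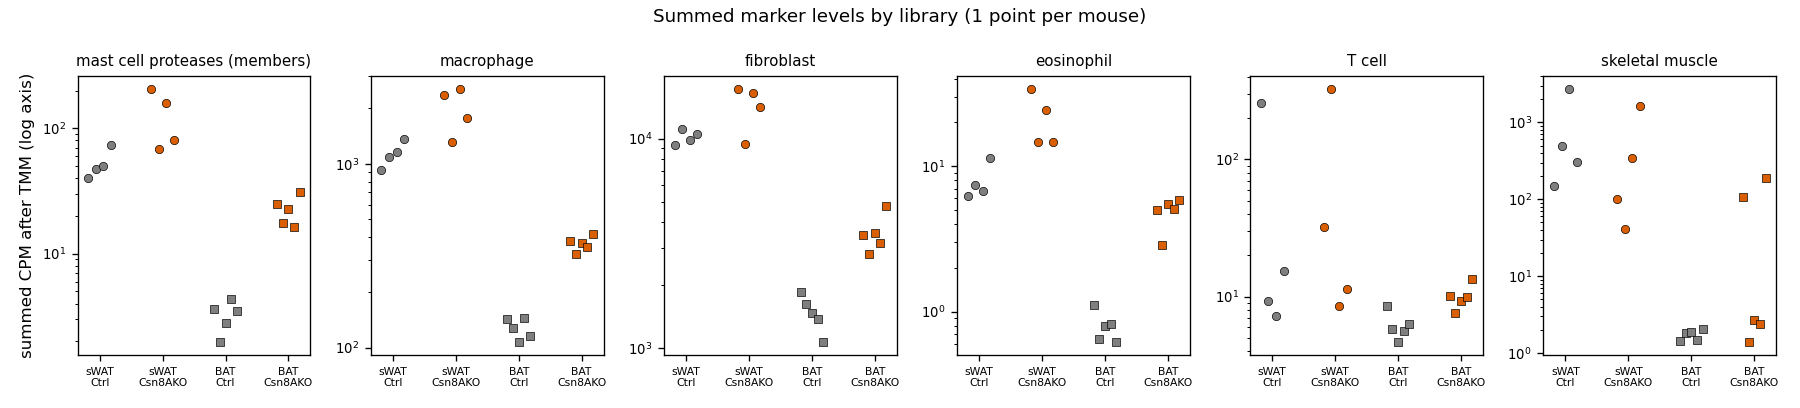
Summed CPM after TMM scaling of the 5 mast cell proteases and of 5 lists of markers of other cells in each of the 18 libraries, on log axes. Points are mice. The macrophage, fibroblast and eosinophil lists are higher in every Csn8AKO than in every Ctrl library of BAT, as the proteases are, and the T cell and muscle lists show the 2 sWAT and 2 BAT libraries that stand apart.

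The 5 genes outside the members whose pattern was most like theirs over the 18 libraries, by Pearson's r with the mean log2 CPM of the 10 members after group means were removed, were *Colec12* (r = 0.87), a scavenger receptor, *Rbm3* (0.87), a cold-induced RNA-binding protein, *Clec4a2* (0.85), a lectin receptor of myeloid cells, *C1qb* (0.85), a chain of complement C1q, and *Cfp* (0.84), properdin. These values are descriptions of 18 libraries of 4 groups that share depth and scaling. *Colec12*, the first of them, was at 6.23 to 7.12 CPM in Ctrl and 8.93 to 12.4 CPM in Csn8AKO BAT, and *C1qb* at 9.51 to 14.0 CPM and 36 to 47.8 CPM in the same groups.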

How the data were processed

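RNA of 18 adipose tissue libraries, 1 mouse each, was sequenced by the authors as total RNA after removal of ribosomal RNA. Paired reads were aligned with STAR to Ensembl release 101 (GRCm38), and the authors deposited for each library the count of uniquely aligned, unambiguous reads per gene from featureCounts. Use of strand was not given in the sources used here. Of the gene counts from 3 to 20, 64.4% to 72.1% were even in each library. The deposited files also hold CPM, FPKM and TPM values, which the authors derived from the counts and which were read only to check units.

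Groups came from the labels. Levels are CPM recomputed from the counts after TMM factors over all 18 libraries. Tests were the quasi-likelihood test of edgeR 4.0.16 in R 4.3.3, with robust estimation, TMM and filterByExpr (minimum count 10, minimum total 15), with Benjamini-Hochberg adjustment over all genes tested and a threshold of 0.05. Genotypes were compared within each tissue, and the interaction and the tissues in 1 fit of 18 libraries. SE is the log2 fold change divided by the square root of F. The p-values set each difference against the spread between mice within groups, which was estimated over all groups of the fit together. Replicates were compared for duplicates, and none was found.

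Alternatives were RLE factors, library size alone, other filters, DESeq2 1.42.0, limma 3.58.1 (voom with quality weights), a replicate block, all 4 groups in one fit and leaving out each library. Leaving out libraries rich in ribosomal RNA, T cell or muscle genes, and leaving out ribosomal RNA genes, were chosen after the data were seen. The tests were checked on simulated counts. Intervals and floors cover counting error only.

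The members and gene lists were chosen with earlier results of these data known. Named were the 10 members, *Cops8*, 10 fixed mast cell genes, up to 4 called genes per list and tissue by adjusted p, 2 per list of other cells, and the 5 genes most like the members. *Epx*, *Prg2*, *Mcpt8* and *Prss34* were named, as markers from the eosinophil and basophil lists, after their values were seen.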

Additional observations from a re-analysis of the deposited data

Results flagged for a closer look

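*Syk*, the kinase recruited by the IgE receptor and used by many leukocytes, had a larger change with genotype in BAT than in sWAT. The difference was 1.08 on the log2 scale (SE 0.28, edgeR adjusted p = 0.0446 for the interaction). It was the 1 gene called for the interaction among 50 tested genes of the other mast cell lists, which is near the share of 2.36% over all genes tested. The interaction of *Syk* was not examined under the alternatives, and the tissues also differ in age. None of the 40 groups of member values (10 genes in 4 groups) had a library that stood apart from the rest by Dixon's criterion, which chance alone would meet in about 1 of 20 groups.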

How the results depend on the processing

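The call of the 5 proteases in BAT held under each alternative run, except that *Tpsab1* was not tested under the filter of 1 CPM. Of the members in sWAT, where edgeR called 0, DESeq2 called 7, limma voom 4, one fit of all 4 groups 5, the fit without the 2 libraries rich in T cell genes 3, library size alone without ribosomal RNA genes 1, and the fits that left out 1 library 0 to 3. For the interaction, also 0, DESeq2 called 3 and library size alone, the filter of 1 CPM, limma voom and library size without ribosomal RNA genes 1 each, and leaving out 1 library gave 0 to 2. Of the other mast cell genes in sWAT, 8 were called, against 0 with library size alone, 13 with DESeq2, 15 with limma voom, 2 with the replicate block, 18 in one fit of all 4 groups, 0 without the 4 libraries rich in ribosomal RNA, 18 without the 2 rich in T cell genes, and 2 to 11 without 1 library. The cause of these shifts was not tested, apart from the fewer libraries fitted.

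Values that changed sign were the *Fcer1a* interaction (-0.13 with limma voom), the *Mrgprb1* interaction (-0.0032 without the libraries rich in T cell genes, -0.057 without those rich in muscle genes, and -0.074 to 0.84 without 1 library) and *Hdc* in BAT (-0.10 to 0.20 without 1 library). None of these was called.

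The labels give the groups the same replicate numbers, and no sign was found that these pair the mice. Same-numbered libraries correlated at -0.30 to 0.15 in sWAT and -0.09 to 0.10 in BAT. Differently numbered libraries correlated at -0.31 to 0.54 and -0.10 to 0.16. So few correlations cannot exclude pairing. With the replicate block, 0 members were called in sWAT, 5 in BAT and 0 for the interaction. Over all genes in sWAT, 1000 were called, against 434 with library size alone, 1946 with DESeq2, 2129 with limma voom, 299 with the block, 2463 in one fit of all groups, 0 and 1820 without the libraries rich in ribosomal RNA and in T cell genes, and 326 to 1477 without 1 library. For the interaction, 532 were called, against 1092 with DESeq2, 914 with limma voom, 297 with the block, and 243 and 299 without the libraries rich in ribosomal RNA and in muscle genes. In BAT, calls split into 3585 higher and 3536 lower, and into 4183 and 2087 with library size alone. *Fcer1a*, *Ms4a2* and *Mrgprb1* had too few reads in BAT to pass the filter.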
